A study of Mus musculus with 16 samples.

Results

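The 4 genes of calcium/calmodulin-dependent protein kinase II (CaMKII), Camk2a, Camk2b, Camk2d and Camk2g, were examined in the hippocampus of mice from a learned helplessness experiment. Members were all transcripts listed under these 4 gene names, which gave 45 of the 80137 transcripts measured and 4 of the 18287 gene names. Camk2a had 7 transcripts, Camk2b 14, Camk2d 21 and Camk2g 3. Whole hippocampus RNA was sequenced from 16 wild type C57BL/6 mice aged 3 months, with 1 library per mouse and 4 mice per group, and both hippocampi of a mouse were pooled. Homecage mice (HC) received neither shocks nor escape trials. Control mice (Ctrl) had 30 escape trials at 0.4 mA without prior inescapable shocks. The remaining mice, called learned helpless (LH) or non-learned helpless (NLH), all received 180 inescapable shocks of 0.4 mA and, on the next day, the 30 escape trials, and were told apart by their escape behavior. NLH and LH are therefore groups formed by behavior after the same treatment, not by a second treatment.

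CaMKII is a kinase of many subunits that is switched on by calmodulin when calcium enters a neuron. It is known for its abundance at excitatory synapses and for its part in long-term potentiation and memory. The alpha subunit (Camk2a) and the beta subunit (Camk2b) are found mainly in neurons, and the beta subunit also binds filamentous actin. The delta (Camk2d) and gamma (Camk2g) subunits occur in most tissues. Each gene is spliced into several forms that differ mainly in the linker between the kinase domain and the hub domain through which subunits assemble.

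Levels are given in FPKM, the number of sequenced fragments scaled to transcript length and library size, so that levels can be compared between genes per length. A gene sum is the FPKM summed over all transcripts that carry the gene name. Estimated depth ranged from 20110000 to 37910000 fragments per mouse, and the LH libraries (20110000 to 27880000) all lay below the Ctrl libraries (28540000 to 37910000). LH mice 3 and 4 stood apart from the other libraries. They had 10846 and 15504 transcripts at 0, against 4872 to 7352 in the other 14 mice, and differences that rest on them are also given without these mice. Their part in each result beyond those values was not tested.

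Camk2a was the highest of the 4 genes, followed by Camk2b, Camk2d and Camk2g, and this order of gene sums held in 16 of 16 mice. Mean gene sums over the 16 mice were 252 FPKM for Camk2a, 73.7 FPKM for Camk2b, 8.22 FPKM for Camk2d and 4.11 FPKM for Camk2g. Camk2a ranked 15 of 18287 gene names by mean FPKM and Camk2b ranked 153, whereas Camk2d ranked 3084 and Camk2g 5743. The share of Camk2a in the summed FPKM of the 4 genes had means of 75.4%, 75.9%, 74.2% and 72.5% for HC, Ctrl, NLH and LH. The order of the last pair depended on which transcripts were counted. Many assembled transcripts carry no gene name, and the named ones held a mean of 97.8% of the FPKM at the Camk2a locus, 72.4% at Camk2b and 92.0% at Camk2d, but 16.7% to 35.2% at Camk2g. With all transcripts of a locus summed, Camk2d was above Camk2g in 0 of 16 mice.

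**Figure D1:**
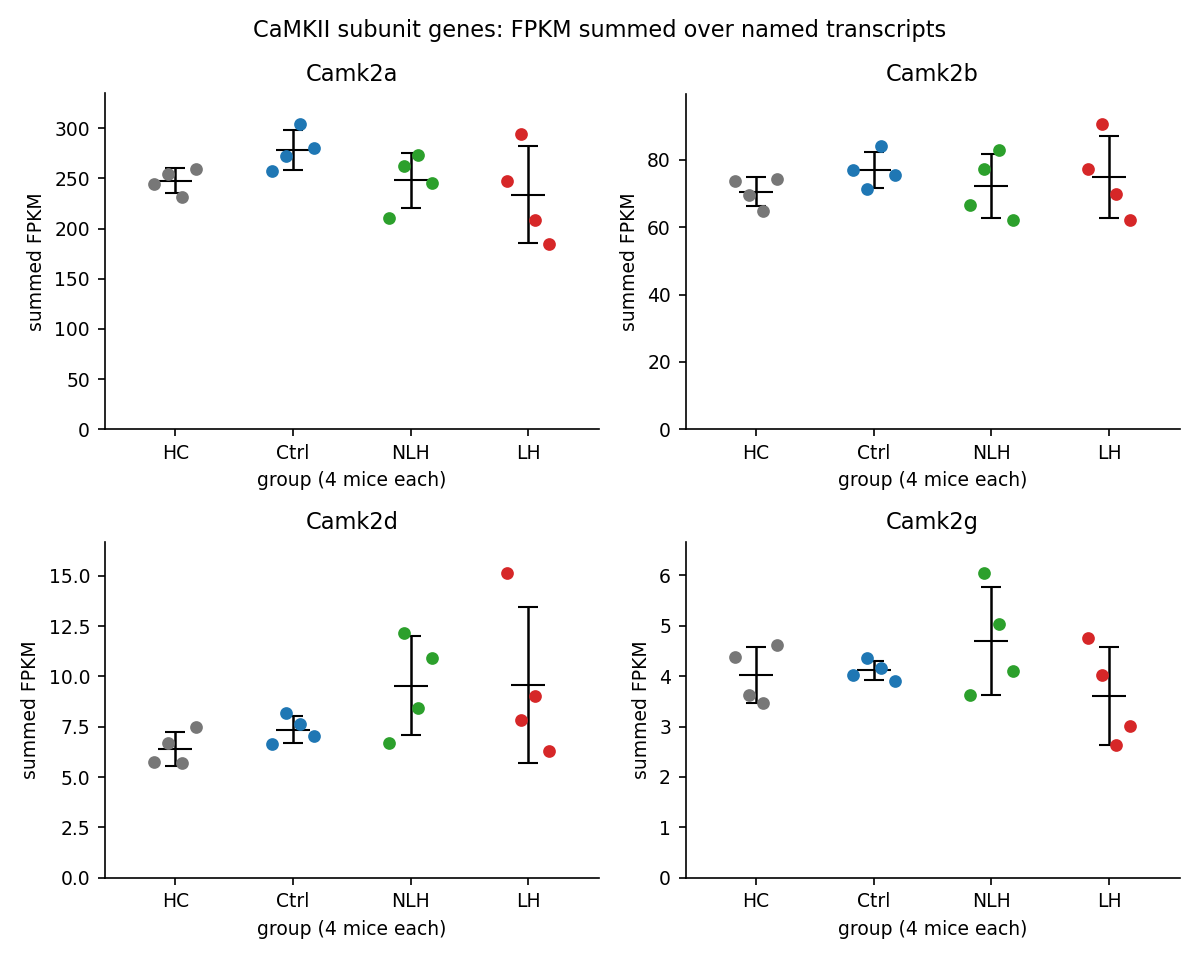
Gene sums in FPKM of Camk2a, Camk2b, Camk2d and Camk2g (1 panel each, vertical axis) for the 4 mice of each group, with points for mice, a line for the mean and a bar for the SD. Camk2a lay between 185 and 304 FPKM and the 4 groups overlapped in each panel, with the lowest Camk2a values in LH mice 4 and 3.

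Camk2a, the alpha subunit, had its highest mean in Ctrl and its lowest in LH, but no comparison passed the test after adjustment. The gene sum was 245, 255, 232 and 259.8 FPKM in the HC mice and 257, 272, 304 and 279.9 FPKM in the Ctrl mice. It was 210.3, 263, 274 and 246 FPKM in the NLH mice and 248, 294, 209 and 185 FPKM in the LH mice. Of the LH mice, mouse 2 was above 3 of the Ctrl mice, mouse 1 was just below the lowest of them, and mice 3 and 4 were well below, so that the groups overlapped. Means were 248 ± 12.4, 278 ± 19.6, 248 ± 27.7 and 234 ± 48.0 FPKM (SD, n = 4) in HC, Ctrl, NLH and LH.

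The 4 comparisons tested ask in turn about handling, the shuttle box and the escape trials together (Ctrl vs. HC), the inescapable shocks without helplessness (NLH vs. Ctrl), helplessness against unshocked mice (LH vs. Ctrl) and helplessness among shocked mice (LH vs. NLH). NLH vs. Ctrl and LH vs. Ctrl share the Ctrl mice, and the other comparisons share groups in the same way. Tests were limma on log2(FPKM + 0.1) fitted over all genes or transcripts, with Benjamini-Hochberg adjustment over the whole table. Differences are given as log2 of the first group over the second, with the standard error (SE). For single values a two-sided exact permutation test of 4 mice against 4 was added, whose smallest possible p is 0.0286.

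In LH vs. Ctrl, Camk2a differed by −0.27 (SE 0.12; limma adjusted p = 0.411, exact permutation p = 0.171), with a 95% interval from −0.53 to −0.01. It was 1 of the 4 gene sums with an unadjusted p under 0.05 in that comparison, where 11.5% of all gene sums reached it. The difference was −0.04 without LH mice 3 and 4, −0.16 without LH mouse 4, and −0.39 without LH mouse 2, at limma adjusted p of 0.854, 0.480 and 0.117. With libraries scaled by size factors it was −0.31 with a limma adjusted p of 0.0389, so that the call itself depended on the scaling. In bulk RNA, a lower level in each cell and fewer cells of the type that makes it cannot be told apart.

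The other Camk2a differences were smaller. Ctrl vs. HC gave 0.17 (exact permutation p = 0.0571), NLH vs. Ctrl −0.17 (p = 0.143) and LH vs. NLH −0.10 (p = 0.657), with limma adjusted p of 1, 0.982 and 0.870. In these 3 comparisons none of the 4 genes had an unadjusted p under 0.05, against 2.7%, 5.59% and 7.54% of all gene sums. With 0 of 4 genes, no gene sum was free of overlap between the groups in any comparison, against 5.25%, 6.1%, 5.63% and 2.09% of gene sums for Ctrl vs. HC, NLH vs. Ctrl, LH vs. Ctrl and LH vs. NLH.

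Camk2b, the beta subunit, differed little between groups. Its gene sum was 73.6, 69.6, 64.8 and 74.3 FPKM in HC and 76.95, 71.3, 84.2 and 75.6 FPKM in Ctrl. The NLH mice had 66.5, 77.3, 82.8 and 62.2 FPKM and the LH mice 77.2, 90.6, 69.8 and 62.1 FPKM. The highest and the lowest of the 16 values both came from LH mice. LH vs. Ctrl gave −0.05 with a 95% interval from −0.30 to 0.20 (limma adjusted p = 0.909, exact permutation p = 0.8). Ctrl vs. HC gave 0.13 and NLH vs. Ctrl −0.10 (exact permutation p = 0.114 and 0.429).

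Camk2d, the delta subunit, had higher means in both shocked groups, but with a wide spread. Its gene sum was 5.73, 6.71, 5.70 and 7.47 FPKM in HC and 6.62, 8.16, 7.63 and 7.05 FPKM in Ctrl. It was 6.68, 12.1, 8.43 and 10.9 FPKM in NLH and 15.2, 7.83, 9.05 and 6.28 FPKM in LH. NLH mice 2, 3 and 4 and LH mice 1 and 3 stood above all HC and Ctrl mice, while NLH mouse 1 and LH mice 2 and 4 lay within their range. Means were 7.37 ± 0.671 FPKM in Ctrl, 9.54 ± 2.45 in NLH and 9.58 ± 3.89 in LH (SD, n = 4). NLH vs. Ctrl gave 0.34 (limma adjusted p = 0.982, exact permutation p = 0.171) and LH vs. Ctrl 0.30 (limma adjusted p = 0.648, exact permutation p = 0.343). Without LH mouse 1 the LH vs. Ctrl difference was 0.05, and without LH mouse 4 it was 0.47 (limma adjusted p = 0.277). Without LH mice 3 and 4 it was 0.56 (limma adjusted p = 0.179). NLH vs. Ctrl was 0.21 without NLH mouse 2.

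Camk2g, the gamma subunit, was 4.38, 3.62, 3.47 and 4.62 FPKM in HC and 4.02, 4.36, 4.16 and 3.91 FPKM in Ctrl. It was 3.63, 6.05, 5.03 and 4.10 FPKM in NLH and 4.76, 4.02, 2.64 and 3.00 FPKM in LH. LH mice 3 and 4 were the lowest of the 16 mice, and the groups overlapped. LH vs. NLH gave −0.38 (SE 0.19; limma adjusted p = 0.677, exact permutation p = 0.200), with a 95% interval from −0.78 to 0.01. Without LH mice 3 and 4 this difference was −0.08. Summed over all transcripts of the locus it was −0.14 (limma adjusted p = 0.765), so that the value rests on the 3 named transcripts, Camk2g-201, Camk2g-202 and Camk2g-203, and on these mice.

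**Figure D2:**
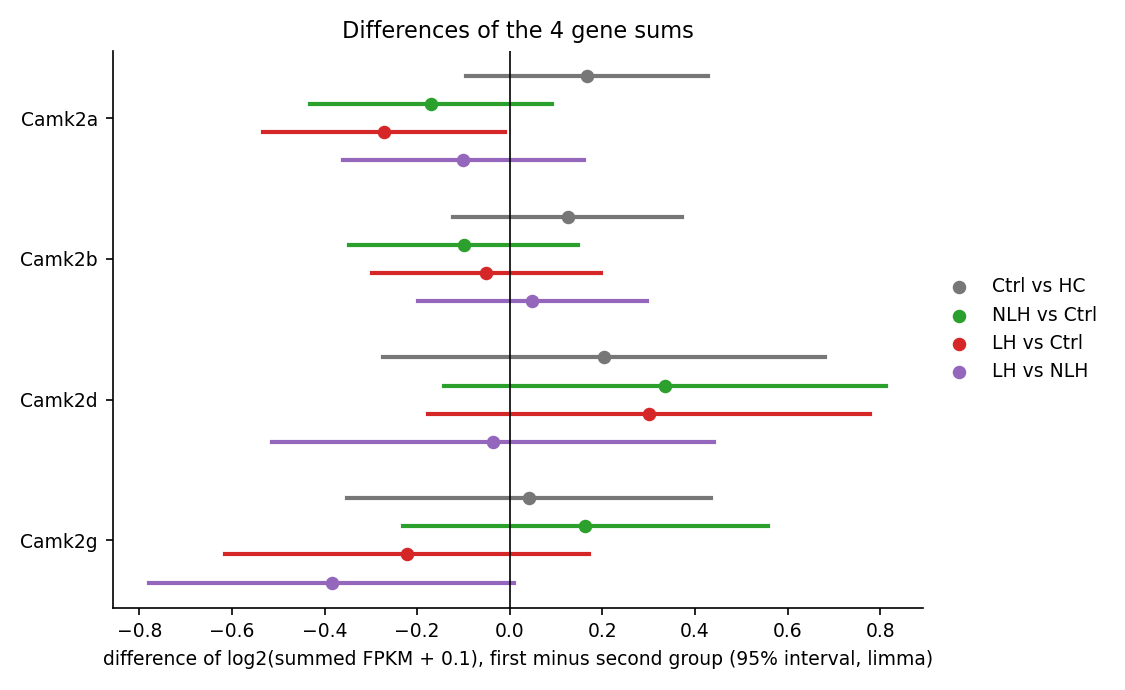
Log2 differences of the gene sums of Camk2a, Camk2b, Camk2d and Camk2g in the 4 comparisons (horizontal axis, first group minus second, log2(FPKM + 0.1)), with points for the limma estimate and bars for its 95% interval. Of the 16 intervals, the one of Camk2a in LH vs. Ctrl lay wholly below 0, from −0.53 to −0.01.

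The ratio of Camk2a to Camk2b was looked at after the values had been seen and is given as a description. With named transcripts it was 3.21, 3.25, 2.99 and 2.97 in the LH mice, below each of the Ctrl mice (3.34, 3.82, 3.62 and 3.71) and each of the HC mice (3.32, 3.66, 3.58 and 3.50). The NLH mice had 3.16, 3.40, 3.31 and 3.95, which spans most of the range of the other groups. With all transcripts of the 2 loci summed, the LH mice had 2.61, 2.34, 2.32 and 2.19 and the Ctrl mice 2.48, 2.69, 2.67 and 2.65, so that LH and Ctrl overlapped. The separation thus held for the named transcripts and not for the whole loci.

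**Figure D3:**
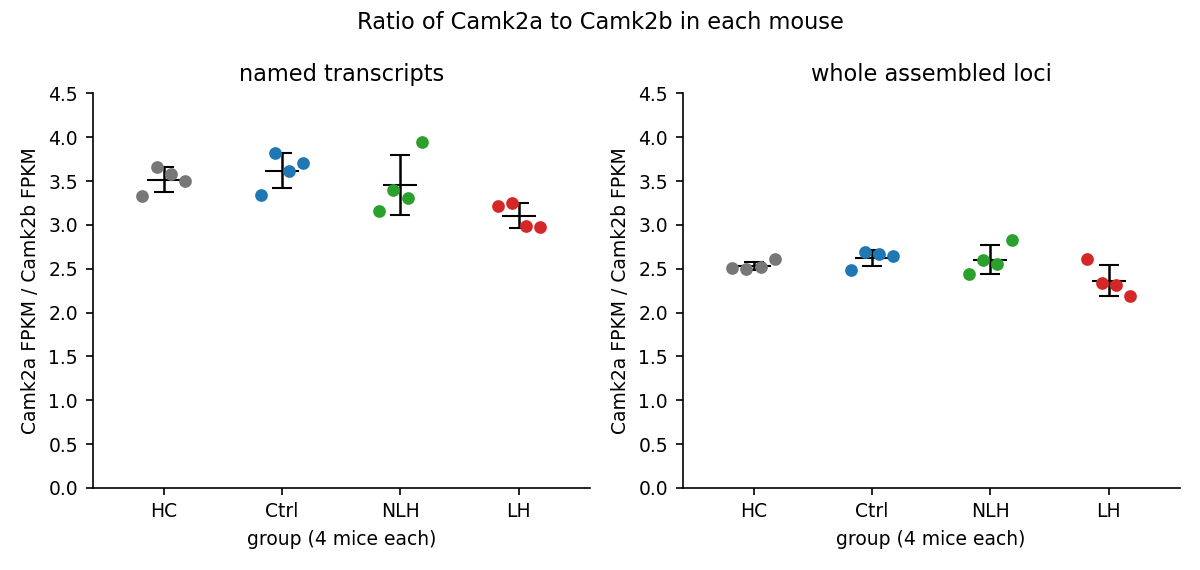
Ratio of the Camk2a to the Camk2b FPKM sum per mouse (vertical axis) in HC, Ctrl, NLH and LH, from named transcripts and from all transcripts of the loci, with points for mice, a line for the mean and a bar for the SD. The LH mice lay at 2.97 to 3.25 for named transcripts, below all Ctrl mice, and overlapped them for whole loci.

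Camk2a was nearly a single transcript. Camk2a-203, which lacks the 33-base linker exon, held 95.3% of the gene's FPKM, and Camk2a-201, which contains that exon, held 2.14%. In Camk2b the full-length form Camk2b-209 held 78.2% of the named FPKM. Next among the named transcripts came the processed transcripts Camk2b-211 with 6.25% and Camk2b-212 with 6.04%. The 2 unnamed transcripts of the Camk2b locus, with a mean of 28.1 FPKM in sum, are not part of this ranking. Among named transcripts, Camk2d was the most mixed. Camk2d-206 held 42.4%, and the other transcripts of at least 5% were Camk2d-201, Camk2d-215, Camk2d-228 and Camk2d-211 with 9.02%, 8.81%, 8.50% and 5.52%. Camk2d-215 and Camk2d-211 are annotated as retained introns, with 66.8% and 94.0% of their bases outside the exons of the protein coding Camk2d isoforms. In Camk2g, Camk2g-201 held 60.9% of the named FPKM, Camk2g-202 20.03% and Camk2g-203 19.0%. The 12 unnamed transcripts of the Camk2g locus, with a mean of 11.7 FPKM in sum, are not part of these shares.

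At the level of single transcripts, 0 of 45 passed a limma adjusted p of 0.05 in any of the 4 comparisons, against 0.00374%, 0.0125%, 0.0462% and 0.0412% of all transcripts for Ctrl vs. HC, NLH vs. Ctrl, LH vs. Ctrl and LH vs. NLH. At an unadjusted limma p under 0.05 there were 2 of 45 in Ctrl vs. HC (1 higher, 1 lower; 3.45% of all transcripts), 7 in NLH vs. Ctrl (1 higher, 6 lower; 5.12%), 6 in LH vs. Ctrl (all lower; 10.7%) and 3 in LH vs. NLH (1 higher, 2 lower; 8.72%). Counting lower transcripts alone, the share over all transcripts was 1.55%, 2.1%, 6.54% and 5.74% in the same order of comparisons. Without LH mice 3 and 4, transcripts at an unadjusted limma p under 0.05 in LH vs. Ctrl went both ways. Some are named after their values were seen. Camk2b-203, Camk2b-205, Camk2b-210 and Camk2d-218, each above 0.1 FPKM in only 1 mouse, were higher, as was Camk2d-226. Camk2a-202, Camk2a-206, Camk2b-212, Camk2b-215 and Camk2d-204 were lower. An equal-variance test on untransformed FPKM could be run on the 38, 40, 43 and 41 members that were not at 0 in all mice compared. It put 5, 5, 5 and 2 of them at an unadjusted p under 0.05 in this order, against 6.94%, 7.45%, 7.9% and 4.55% of the transcripts it could be run on. Groups did not overlap for 3, 2, 2 and 2 of the same members, against 4.05%, 4.47%, 5.07% and 2.51% of the same transcripts. The median difference of the 45 transcripts was −0.10 for LH vs. Ctrl and −0.11 for LH vs. NLH, beside −0.06 and −0.08 over all transcripts.

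Camk2b-215 was the member with the smallest p in LH vs. Ctrl. It is annotated as a processed transcript of 8 exons and 3328 bases at the 3′ end of Camk2b (GRCm38, chr11:5969668-5984138, minus strand), and 16.7% of its bases lie outside the exons of the protein coding Camk2b isoforms. Its level was 2.97, 4.67, 3.23 and 3.26 FPKM in HC and 4.97, 4.03, 3.05 and 3.44 FPKM in Ctrl. It was 1.24, 2.65, 2.27 and 2.71 FPKM in NLH and 1.60, 1.62, 1.42 and 1.29 FPKM in LH. All 8 mice that had received inescapable shocks were below all 8 that had not, and NLH and LH overlapped. LH vs. Ctrl gave −1.31 (SE 0.23; limma adjusted p = 0.0562, exact permutation p = 0.0286), NLH vs. Ctrl −0.81 (SE 0.23; limma adjusted p = 0.494, exact permutation p = 0.0286) and LH vs. NLH −0.50 (limma adjusted p = 0.562, exact permutation p = 0.143).

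The limma adjusted p of Camk2b-215 in LH vs. Ctrl ran from 0.0197 to 0.163 when 1 mouse at a time was left out. It lay under 0.05 without NLH mouse 1 and without LH mouse 2. Adding 0.01 in place of 0.1 before the log, a filter at a mean FPKM of 1 and size factors also gave values under 0.05. Without LH mice 3 and 4 the difference was −1.19. Its ratio to the other Camk2b transcripts gave −1.31 as well (SE 0.34; limma adjusted p = 0.198). Camk2b-209, the main coding form, had mean levels of 58.8 FPKM in Ctrl and 55.1 FPKM in LH. The level of Camk2b-215 corresponds to an estimated 81.0 to 497 fragments per mouse.

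Camk2b-212 lies at the 5′ end of the gene (GRCm38, chr11:6011665-6065658, minus strand). It is a processed transcript of 3 exons and 4125 bases, of which 91.8% are outside the coding isoforms' exons. Its level was 5.04, 4.88, 5.32 and 4.76 FPKM in Ctrl and 3.05, 3.98, 3.61 and 4.26 FPKM in LH, with every LH mouse below every Ctrl mouse. HC ranged from 4.33 to 5.80 FPKM and NLH from 3.64 to 4.85 FPKM, the latter overlapping both Ctrl and LH. LH vs. Ctrl gave −0.42 (SE 0.13; limma adjusted p = 0.259, exact permutation p = 0.0286) and NLH vs. Ctrl −0.29 (limma adjusted p = 0.932).

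Another processed transcript of Camk2b, Camk2b-211, was highest in LH. It has 6 exons and only 456 bases (GRCm38, chr11:5992820-6066362, minus strand), so that its values rest on an estimated 5.01 to 68.0 fragments per mouse. Its level was 5.98, 10.8, 8.46 and 9.89 FPKM in LH and 2.43, 2.78, 3.09 and 0.523 FPKM in NLH, without overlap. HC ranged from 0.953 to 3.87 FPKM and Ctrl from 2.83 to 8.001 FPKM, and Ctrl mouse 3 lay within the LH range. LH vs. NLH gave 2.15 (SE 0.52; limma adjusted p = 0.229, exact permutation p = 0.0286), and NLH vs. Ctrl gave −1.16 (limma adjusted p = 0.951). The ratio to the other Camk2b transcripts gave 2.25 in LH vs. NLH (limma adjusted p = 0.194). The group means of Camk2b-215 and Camk2b-212 were in 1 order, highest in Ctrl and lowest in LH, from which Camk2b-211 differed. The summed level of the Camk2b transcripts that are not protein coding had means of 13.8 FPKM in Ctrl, 9.80 FPKM in NLH and 14.4 FPKM in LH.

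Camk2a-206, a retained intron transcript of 2 exons and 2301 bases, 75.1% of them outside the coding isoforms' exons, was 4.15, 4.18, 3.88 and 4.14 FPKM in Ctrl and 2.14, 2.76, 3.14 and 3.96 FPKM in LH. LH mouse 4 lay within the Ctrl range and the other 3 below it. In HC it ranged from 3.61 to 3.85 FPKM, below all Ctrl mice, and in NLH from 2.79 to 3.88 FPKM. LH vs. Ctrl gave −0.47 (SE 0.15; limma adjusted p = 0.298, exact permutation p = 0.0571), and −0.73 without LH mice 3 and 4 (limma adjusted p = 0.0385). NLH vs. Ctrl gave −0.35 (limma adjusted p = 0.932, exact permutation p = 0.0571). The main coding form Camk2a-203 gave −0.28 in LH vs. Ctrl (SE 0.13; limma adjusted p = 0.448, exact permutation p = 0.171), and −0.03 without LH mice 3 and 4.

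**Figure D4:**
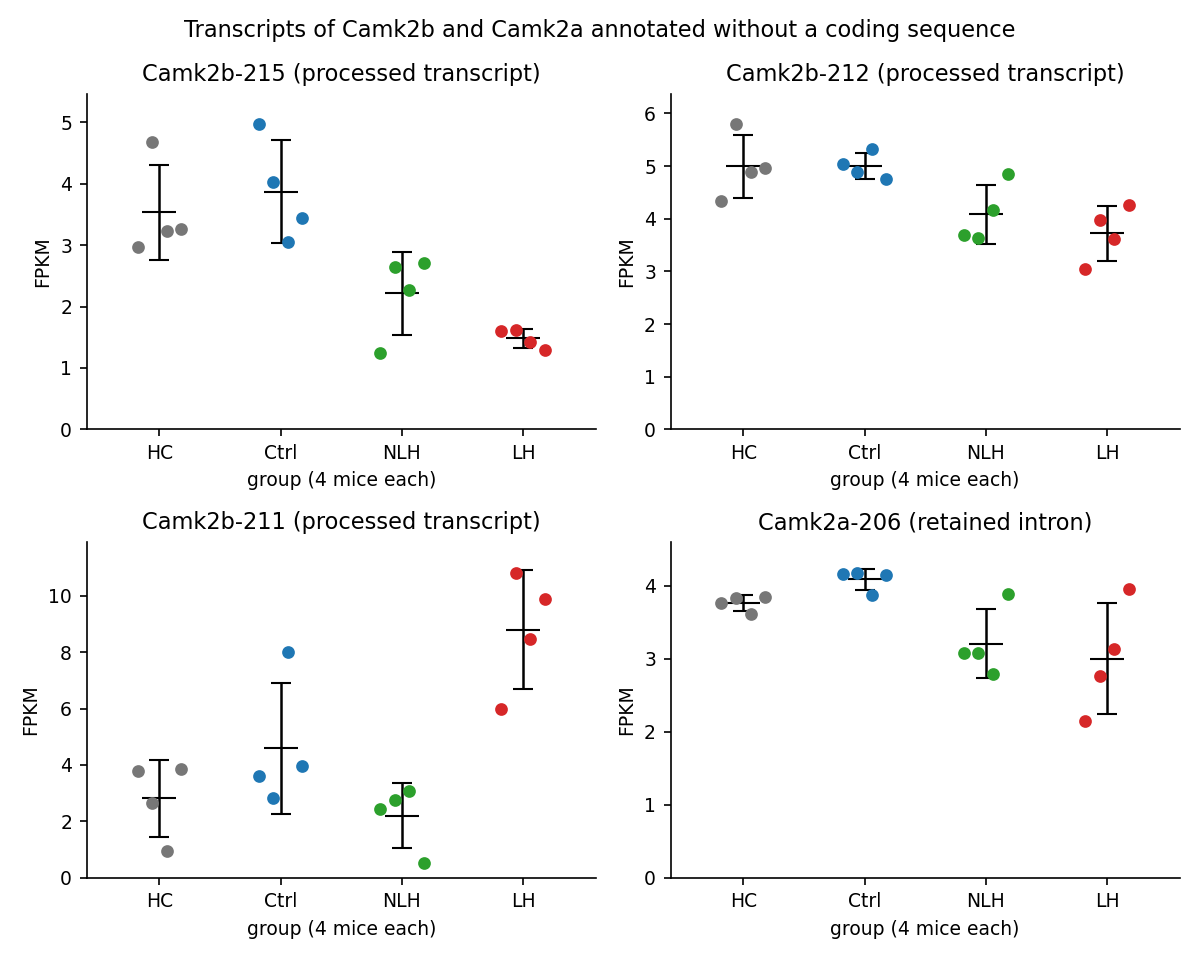
FPKM per mouse (vertical axis) of Camk2b-215, Camk2b-212, Camk2b-211 and Camk2a-206 (1 panel each) in HC, Ctrl, NLH and LH, with points for mice, a line for the mean and a bar for the SD. Camk2b-215 lay at 1.24 to 2.71 FPKM in the shocked mice and at 2.97 to 4.97 FPKM in the others, and Camk2b-211 at 5.98 to 10.8 FPKM in LH and 0.523 to 3.09 FPKM in NLH.

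Among Camk2d transcripts the main coding form Camk2d-206 varied widely. The HC mice had 3.42, 0.569, 1.22 and 2.60 FPKM and the Ctrl mice 2.73, 3.37, 2.90 and 3.35 FPKM. It was 3.96, 5.35, 4.25 and 4.04 FPKM in NLH and 8.47, 4.13, 2.12 and 3.29 FPKM in LH. All 4 NLH mice were above all 4 Ctrl mice, and LH overlapped both. NLH vs. Ctrl gave 0.49 (limma adjusted p = 1, exact permutation p = 0.0286), the limma test taking its spread from all 16 mice. Camk2d-207, a retained intron transcript of 3479 bases at under 1 FPKM, was 0.551, 0.880, 0.495 and 0.493 FPKM in NLH and 0.467, 0.410, 0 and 0.239 FPKM in LH, without overlap (−1.13, SE 0.45; limma adjusted p = 0.515, exact permutation p = 0.0286). The difference was −0.58 without LH mouse 3, the mouse at 0, and −0.36 without LH mice 3 and 4. Camk2d-204 was at or near 0 in most mice and reached 0.414 FPKM in 1 Ctrl mouse, at most an estimated 34.5 fragments. Its differences of 1.17 in Ctrl vs. HC and −1.21 in both shocked groups vs. Ctrl therefore rest on 3 Ctrl mice.

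A further 4 transcripts had an unadjusted limma p under 0.05 in 1 comparison and are named after their values were seen. They were Camk2d-202 (−2.14) in Ctrl vs. HC, Camk2b-208 (−2.51) and Camk2d-217 (2.13) in NLH vs. Ctrl, and Camk2a-204 (−1.58) in LH vs. Ctrl, which was −0.61 without LH mice 3 and 4. Camk2d-217, of 618 bases, and Camk2a-204, of 979 bases, had at most an estimated 18.8 and 20.5 fragments in any mouse. For the ratio of a transcript to the rest of its gene, 1, 5, 4 and 3 of 45 had an unadjusted limma p under 0.05 in Ctrl vs. HC, NLH vs. Ctrl, LH vs. Ctrl and LH vs. NLH, against 3.33%, 4.89%, 10.5% and 9.36% of 54197 transcripts. After adjustment 0 of 45 passed in each comparison, against 0.00369%, 0.0111%, 0.0351% and 0.0461%. In NLH vs. Ctrl the count of 5 was 3 with the replicate number as a block.

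**Figure D5:**
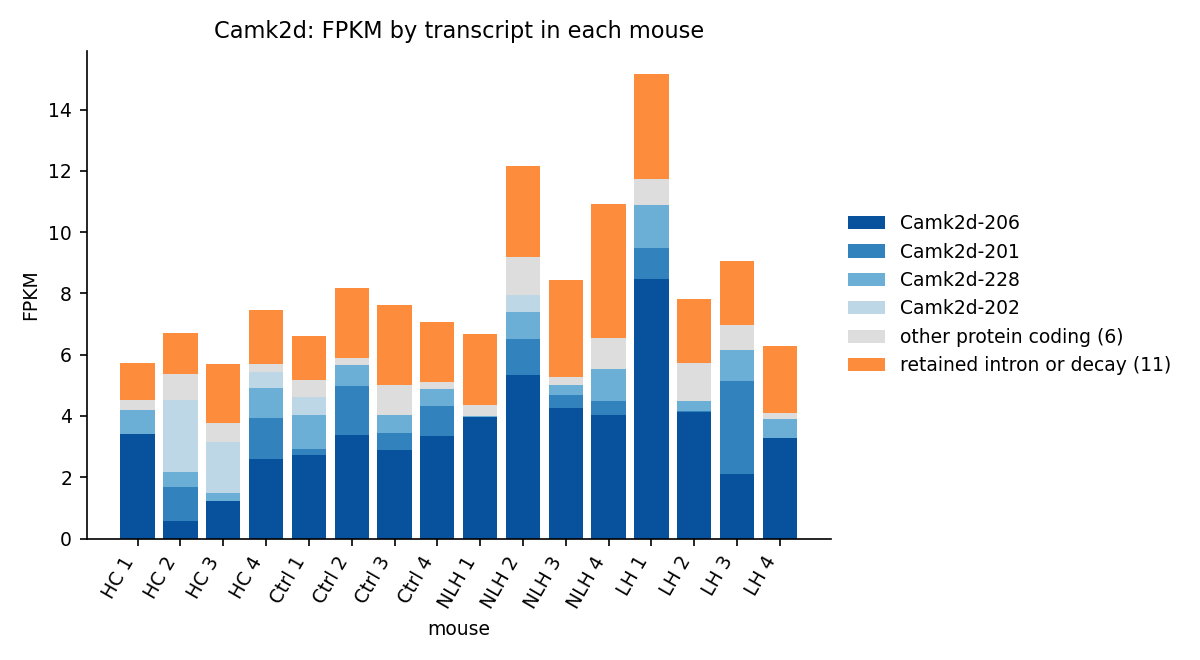
Stacked FPKM of Camk2d transcripts per mouse (vertical axis, 1 bar per mouse, grouped as HC, Ctrl, NLH and LH), with colors for Camk2d-206, Camk2d-201, Camk2d-228, Camk2d-202, 6 other protein coding transcripts, and 11 retained intron or decay transcripts. The bars reach from 5.70 to 15.2 FPKM, and Camk2d-206 ranges from 0.569 to 8.47 FPKM.

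Inclusion of the alternative linker exons was read from the FPKM of the coding isoforms with at least 9 coding exons that contain or lack each exon, and is given as a description without a test. This leaves out short coding forms, among them Camk2a-202, which had 5.69 FPKM in LH mouse 4, and Camk2d-201, which had 3.03 FPKM in LH mouse 3 and begins inside the 33-base exon of Camk2d. The exons below are shown because they separate the isoforms just described. The 33-base exon of Camk2d (GRCm38, chr3:126802937-126802969, plus strand) and its counterpart in Camk2g (chr14:20747819-20747851, minus strand) are known for a nuclear localization signal at their start. They agree at 26 of 33 aligned bases, in capitals:
Camk2d 33-base exon: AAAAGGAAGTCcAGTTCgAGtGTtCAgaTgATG
Camk2g 33-base exon: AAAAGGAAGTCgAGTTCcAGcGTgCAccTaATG
The shared run at the start of both exons is the stretch that encodes the basic residues. Mean inclusion in Camk2d was 3.28%, 1.90%, 0.390% and 0% for HC, Ctrl, NLH and LH. For Camk2g it was 55.9%, 64.6%, 64.6% and 65.9%, with single mice from 39.7% to 90.6%. The Camk2g values cover only the 3 named transcripts, which held 16.7% to 35.2% of the FPKM at that locus. The Camk2d values rest on Camk2d-205, which was above 0.1 FPKM in 4 of 16 mice, HC mice 1 and 2, Ctrl mouse 3 and NLH mouse 2, so that nearly all of the Ctrl mean and the whole NLH mean come from 1 mouse each. The corresponding 33-base exon of Camk2a was included at 1.77%, 1.87%, 2.56% and 2.63%. In LH it was 2.61%, 2.22%, 2.88% and 2.79%, above the 1.72%, 2.01%, 2.05% and 1.70% of each Ctrl mouse, a separation noticed after the values were seen. NLH ranged from 1.30% to 3.59% and overlapped both.

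A second linker exon is present in both Camk2b (45 bases, chr11:5981070-5981114, minus strand) and Camk2d (42 bases, chr3:126808208-126808249, plus strand). Capitals mark the 33 bases of the 42 in Camk2d that are the same at aligned positions in Camk2b:
Camk2b 45-base exon: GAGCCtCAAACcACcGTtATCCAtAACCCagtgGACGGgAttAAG
Camk2d 42-base exon: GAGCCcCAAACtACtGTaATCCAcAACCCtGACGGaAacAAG
Both were included in most of the FPKM of the coding isoforms counted. The Camk2b exon had means of 99.1%, 98.8%, 99.4% and 98.1% in HC, Ctrl, NLH and LH, and the Camk2d exon 90.4%, 89.7%, 96.1% and 92.4%. The 75-base linker exon of Camk2b stood at 96.1%, 93.1%, 96.7% and 91.4%.

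The 60-base linker exon of Camk2d (chr3:126805857-126805916, plus strand) varied most, and is shown in lower case with no bases marked:
Camk2d 60-base exon: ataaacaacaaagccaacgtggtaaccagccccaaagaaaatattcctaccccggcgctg
Its inclusion was 92.7%, 30.7%, 45.6% and 81.8% in the HC mice and 78.9%, 94.99%, 78.0% and 94.9% in the Ctrl mice. The NLH mice had 98.1%, 88.3%, 94.9% and 96.6% and the LH mice 97.1%, 83.7%, 93.4% and 95.1%. HC mice 2 and 3 were the lowest of all 16, and the values of the other 3 groups overlapped. Camk2d-202, a coding form without this exon, had 2.35 and 1.64 FPKM in these 2 mice and at most 0.594 FPKM in each of the other 14.

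Camk2d also carries a pair of 73-base exons in the kinase domain, each of the 9 isoforms counted here having 1 of the 2, at chr3:126770785-126770857 and chr3:126771774-126771846 (plus strand). They are shown because they distinguish Camk2d-206 from the forms Camk2d-203 and Camk2d-221, and capitals mark the 50 of 73 bases they share:
Camk2d first 73-base exon: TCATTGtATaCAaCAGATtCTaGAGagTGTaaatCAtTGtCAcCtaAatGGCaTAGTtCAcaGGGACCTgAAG
Camk2d second 73-base exon: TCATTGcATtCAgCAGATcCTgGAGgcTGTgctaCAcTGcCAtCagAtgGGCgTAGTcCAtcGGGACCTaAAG
The first of the pair was in 97.1%, 99.4%, 92.5% and 93.8% of the FPKM of these 9 isoforms for HC, Ctrl, NLH and LH. Camk2d-201 begins downstream of both exons and is not among them. All sequences come from the GENCODE vM21 exons on GRCm38.

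Genes that act with CaMKII showed no difference past the adjusted test. Of 40 such genes 39 were in the table, and 0 of 39 gene sums passed a limma adjusted p of 0.05 in any comparison, against 0%, 0.00547%, 0% and 0.0109% of all gene sums in Ctrl vs. HC, NLH vs. Ctrl, LH vs. Ctrl and LH vs. NLH. At an unadjusted limma p under 0.05 there were 2 of 39 in Ctrl vs. HC (Arc and Rbfox1, both higher), 1 in LH vs. Ctrl (Calm3, lower) and 2 in LH vs. NLH (Srsf1 higher, Camk2n2 lower), against 2.7%, 11.5% and 7.54% of all gene sums. Their median differences were 0.07, −0.01, −0.05 and −0.10 in these comparisons, and those of all gene names were 0.02, 0.06, 0 and −0.06.

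Calm3 and Calm2 encode calmodulin, the activator of CaMKII. Calm3 was 202 to 208 FPKM in Ctrl and 179.6, 209, 148 and 124 FPKM in LH, where the same 2 mice, 3 and 4, were lowest (−0.34, SE 0.13; limma adjusted p = 0.315). Without these mice the difference was −0.08. Calm2 had means of 271 FPKM in Ctrl and 274 FPKM in LH. Of the inhibitor proteins of CaMKII, Camk2n1 had means of 4.54 FPKM in Ctrl and 4.404 FPKM in LH. Camk2n2 had 1.06 FPKM in NLH and 0.670 FPKM in LH (−0.74; limma adjusted p = 0.653), and −0.20 without LH mice 3 and 4. Neurogranin (Nrgn), which binds calmodulin at low calcium, had 61.3 and 62.2 FPKM in Ctrl and LH.

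The genes whose levels followed each member most closely over the 16 mice were picked by Pearson's r of log2(FPKM + 0.1) among 10435 gene names, and are a description that shares library depth and group among its points. For Camk2a they were Cplx2 (r = 0.97), Arf3 (0.96) and Ppp1r9b (0.95), and for Camk2b Slc7a14 (0.91), Gria1 (0.89) and Ncs1 (0.89). For Camk2d they were Rps29 (0.87), Nudc (0.87) and Ajap1 (0.85), and for Camk2g Wdfy2 (0.91), Dynll2 (0.90) and Mrpl54 (0.89). Among the members themselves r was highest for Camk2a with Camk2b (0.78) and lowest for Camk2a with Camk2d (0.17).

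Markers of the cell types in the tissue were set beside these results. The excitatory neuron markers Slc17a7, Neurod6 and Neurod2, the class in which Camk2a is mainly made, summed to 163 to 179 FPKM in Ctrl and 134 to 218 FPKM in LH, and 1 of 3, Neurod6, was higher in LH vs. Ctrl at an unadjusted p under 0.05 (0.33). Slc17a7 and Neurod2 gave −0.10 and −0.28 there, and 0.17 and −0.03 without LH mice 3 and 4. The hippocampal markers Prox1, Wfs1 and Zbtb20 had sums of 40.5 to 84.2 FPKM in LH against 48.1 to 62.6 FPKM in Ctrl. Wfs1 was at 0.194 and 0.00225 FPKM in LH mice 3 and 4 and at 1.48 and 1.55 FPKM in the other LH mice, and was lower in LH vs. NLH at an unadjusted p under 0.05 (−2.10, limma adjusted p = 0.521; −0.49 without these mice). The 2 endothelial markers measured, Flt1 and Slco1a4, were both higher in LH vs. Ctrl at an unadjusted limma p (summed level 11.9 to 19.99 FPKM against 8.09 to 10.6 FPKM; adjusted p = 0.209 and 0.139). Without LH mice 3 and 4 they gave 0.84 and 0.80 (limma adjusted p = 0.0576 and 0.0202). Choroid plexus markers summed to 2.43 to 83.4 FPKM and red blood cell markers to 144 to 459 FPKM in LH, the widest of the 4 groups. The part of these markers in the CaMKII differences was not tested.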

How the data were processed

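Hippocampal RNA of 16 mice was measured, and the deposited values are FPKM per transcript and mouse. Per the authors' methods reads were aligned to mm10 with HISAT2, whereas the submitters' processing notes name STAR 2.42a. Transcripts were assembled with StringTie 1.2.3 and quantified with Cufflinks by the authors, and quantities of isoforms that share exons are estimates of that model. Strand use is not given in the sources used here, so that Camk2d and the opposite-strand gene Gm15551 cannot be told apart. Groups were taken from the sample group labels, and the 16 mice are separate animals.

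Here limma 3.58.1 (R 4.3.3, data.table package 1.17.8) took log2(FPKM + 0.1) from the 16 mice, with 1 mean per group and trend and robust moderation, for 80137 transcripts, 18287 gene sums and 54197 transcript-to-rest ratios, with Benjamini-Hochberg adjustment, so that a fold understates the change of transcripts near 0.1 FPKM. The scripts were tested on simulated data. Exact permutation tests and overlaps took values under 0.01 FPKM as 0. Depth was estimated from FPKM steps at 1962 loci longer than 2000 bases, with a fragment length of 200 bases assumed, and 72.8% to 85.1% of values lay within 0.1 of a whole fragment (20% by chance). Depth sets how finely low transcripts are resolved, and estimated fragments are given in the report for some of the short and rare ones. All 45 members matched GENCODE vM21 (GRCm38) by identifier without version. Syn1 and Cldn5 were not analysed here, and some results for single genes of the lists are not reported here. Python 3.11.15 with numpy 2.4.6, pandas 2.3.3, scipy 1.17.1, biopython 1.88 and matplotlib 3.10.9 was used for the rest.

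Transcripts named are those with at least 5% of their gene's FPKM, an adjusted p under 0.05, or the smallest p of their gene in a comparison; others are marked as named after their values were seen, except for transcripts without overlap between groups, which were also picked from their values. For each member the 3 gene names of most like pattern are given. The members and all lists were chosen with earlier results of these data known. Alternatives added 0.01 or 1 FPKM before the log, required a mean FPKM of 1, used size factors, only the 2 groups compared, a replicate block, the equal-variance test on FPKM, whole loci, or left out each mouse; leaving out LH mice 3 and 4 and summing whole loci were chosen after seeing the data.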

Additional observations from a re-analysis of the deposited data

Results flagged for a closer look

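In each group of 4 mice the highest or lowest value was compared with the nearest other value, over the 4 gene sums and the named transcripts. In 5 of 84 groups tested 1 mouse stood apart, and chance gives about 1 in 20. In Camk2b-215, HC mouse 2 had 4.67 FPKM, with the other HC mice at 2.97 to 3.26 FPKM, and it lies on the far side from the shocked mice. In Camk2a-206, Ctrl mouse 3 had 3.88 FPKM against 4.14 to 4.18 FPKM. In Camk2d-207, NLH mouse 2 had 0.880 FPKM against 0.493 to 0.551 FPKM. In Camk2d-215, HC mouse 4 had 0.658 FPKM against 0.441 to 0.462 FPKM. In Camk2a-207, HC mouse 3 had 0.354 FPKM and the other HC mice were at 0, at most an estimated 3.64 fragments.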

How the results depend on the processing

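Of the values for gene sums under the alternatives, 415 of 432 kept their direction and their side of the threshold. Camk2a in LH vs. Ctrl passed the adjusted test with size factors (−0.31), and Camk2d in LH vs. NLH turned to 0.0024 with size factors and to 0.0375 FPKM in the equal-variance test. Without LH mice 3 and 4 Camk2b and Camk2g in LH vs. Ctrl turned to 0.12 and 0.088, Camk2a and Camk2d in LH vs. NLH to 0.13 and 0.23, Camk2g-203 in LH vs. Ctrl to 0.90 and Camk2a-203 in LH vs. NLH to 0.14. Leaving out 1 mouse at a time gave −0.22 to 0.0062 for Camk2a, −0.047 to 0.13 for Camk2b and −0.28 to 0.14 for Camk2d in LH vs. NLH, −0.15 to 0.035 for Camk2b in LH vs. Ctrl, −0.025 to 0.11 for Camk2g in Ctrl vs. HC, −0.0043 to 0.24 for Camk2g-201 in NLH vs. Ctrl and −0.23 to 0.012 for Camk2a-203 in LH vs. NLH. In 7 cases a named transcript passed the adjusted test that it had missed, 5 of them Camk2b-215 in LH vs. Ctrl, 1 Camk2a-203 with size factors (−0.33) and 1 Camk2a-206 without LH mice 3 and 4.

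Counts of the 45 transcripts at an unadjusted p under 0.05 changed as follows. In Ctrl vs. HC the count was 1 with 0.01 added, 0 with the mean FPKM filter, 5 with only the 2 groups, 5 with the equal-variance test and 1 to 3 without 1 mouse. In NLH vs. Ctrl it was 4 with the filter and 4 to 8 without 1 mouse, in LH vs. Ctrl 10 without LH mice 3 and 4, and in LH vs. NLH 5 with 0.01 added, 6 without LH mice 3 and 4 and 1 to 4 without 1 mouse. At an adjusted p, LH vs. Ctrl had 1 with 0.01 added, 1 with the filter, 2 with size factors, 1 without LH mice 3 and 4 and 0 to 1 without 1 mouse. For transcript-to-rest ratios the counts were 2 in Ctrl vs. HC and 3 in NLH vs. Ctrl with 0.01 added, and without 1 mouse 0 to 2, 2 to 6, 2 to 6 and 2 to 5 in Ctrl vs. HC, NLH vs. Ctrl, LH vs. Ctrl and LH vs. NLH. The cause of these changes was not tested, apart from the fewer transcripts tested under the filter.

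Mice with the same replicate number did not deviate together (median r = −0.0084 over 24 pairs, −0.0575 to 0.0874), so that the numbers do not pair mice. With the replicate number as a block the count of ratios in NLH vs. Ctrl was 3 in place of 5, that of transcripts in LH vs. Ctrl 7 in place of 6 and that of ratios in LH vs. NLH 4 in place of 3, while the other counts were equal and no gene sum or named transcript crossed the adjusted threshold. Depth was lowest in LH, and differences of transcripts under about 1 FPKM are limited by it.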
